A study of Drosophila melanogaster with 18 samples.

Results

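The comparison described is the knockdown of PCF11 in testes of Drosophila melanogaster with the VDRC RNAi line (group PCF11_KD) against control testes. It comprises 4 of the 18 libraries of the series, 2 per group, and was made over every gene entry of the deposited table of counts at poly(A) sites. That table holds 529 entries with 522 gene symbols and 1082 sites, and 525 entries (519 symbols) averaged 10 or more counts over the 18 libraries and were tested. All 1082 sites are on a site list of the authors that is named for bam against spermatocytes. Percentages below therefore describe the entries of that list and not testis genes at large. The series covers 3′-end sequencing of testes after knockdown of cleavage and polyadenylation factors, in 9 groups of 2 libraries. PCF11_KD testes have the genotype bamGal4>PCF11-KD. Other groups are used below, where PCF11_NIG_KD testes (bamGal4>PCF11-NIG-KD) carry another RNAi line against PCF11, cbc_KD testes carry bamGal4>cbc-KD(BL 77426), and control testes carry the driver bamGal4 and no RNAi transgene by their label. All were dissected from progeny kept at 29 °C after 3 days of crossing at 25 °C, each library was made from about 150 pairs of testes, and no ages are given.

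PCF11 and Clp1, which is called crowded by cid (cbc) in the fly, form cleavage factor II, a part of the machinery that cuts the nascent transcript at a poly(A) site. PCF11 also contacts the carboxy-terminal domain of RNA polymerase II and acts in transcription termination. A gene with several poly(A) sites yields mRNAs that share a coding region and differ in the 3′ UTR: cleavage at the proximal site gives the shorter mRNA, and cleavage at the distal site gives the longer one. The bam promoter drives Gal4 in the late spermatogonial divisions of the germ line, so that the RNAi acts there and in the spermatocytes that follow, in which many fly genes are known to use sites nearer to the stop codon than in spermatogonia.

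Library totals were 536930 and 473323 counts in PCF11_KD, against 371119 and 342763 in control, within a range of 342763 to 819286 over the series. The 2 libraries of each group differed by more than counting noise, with a chi-square per degree of freedom over sites of 4.04 in PCF11_KD and 3.95 in control, and were kept as separate replicates. The labels do not say that duplicates came from separate crosses, so p-values measure the spread between these samples, which may be technical. Sample numbers in the column names recur between PCF11_KD and CPSF6_KD, control and PABP2_KD, PCF11_NIG_KD and CstF64_KD, and suf_KD and CstF50_KD. The column names give no run or date. Whether PCF11_KD and control were prepared together is thus not known, and effects of group and of preparation cannot be told apart. None of 20 listed cleavage and polyadenylation factors, PCF11 among them, is on the authors' site list (0 measured), so the remaining PCF11 level was not measured here. In whole testes, fewer cells of a type and less RNA per cell cannot be told apart. Levels are given in CPM, that is, site or gene counts divided by the TMM-adjusted library size over the genes of the table. A few germline markers were measured, which describe the tissue and do not check in which cells the RNAi acted. The meiotic phosphatase gene twe had 1499 and 1633 CPM in PCF11_KD and 798 and 861 CPM in control over its sites, and the 3 spermatid markers measured, r-cup, m-cup and nes, had counts in every library.

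After PCF11 knockdown, most genes that changed used their distal site more. The proximal share, the percent of the counts of a gene's 2 main sites that fall on the proximal one, had a median over the 525 entries of 61.8% and 63.8% in the PCF11_KD libraries, against 76.1% and 78.6% in the control libraries. Both PCF11_KD medians lay below both control medians, and the exact 2-sided permutation p was 0.3333, the smallest that 2 against 2 libraries allow. In edgeR's quasi-likelihood test of the log2 odds of cleavage at the proximal rather than the distal site, 230 entries (43.8% of those tested) moved toward the distal site and 50 (9.52%) toward the proximal site at an adjusted p under 0.05. Without control replicate 1 the number toward proximal was 28, while the number toward distal was between 173 and 213 when any 1 of the 4 libraries was left out.

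The moves were large beside the scatter between replicates. The absolute difference in share between the 2 PCF11_KD libraries had a median of 2.64 points, and that between the 2 control libraries 3.25 points, whereas the absolute difference between the group means had a median of 12.2 points. The share was lower by at least 10 points in 227 entries, by at least 30 points in 78 and by at least 50 points in 21. It was higher by at least 10 points in 62 entries, by at least 30 in 11 and by at least 50 in 2. Both PCF11_KD shares lay below both control shares in 306 entries (58.3%), and above them in 107 (20.4%). In control, 385 entries had most of their counts at the proximal site in both libraries. Of these, 81 had most of their counts at the distal site in both PCF11_KD libraries, and 78 of the 81 passed the usage test. Of the 112 entries that were mostly distal in both controls, 14 were mostly proximal in both PCF11_KD libraries, and 8 of these passed.

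**Figure D1:**
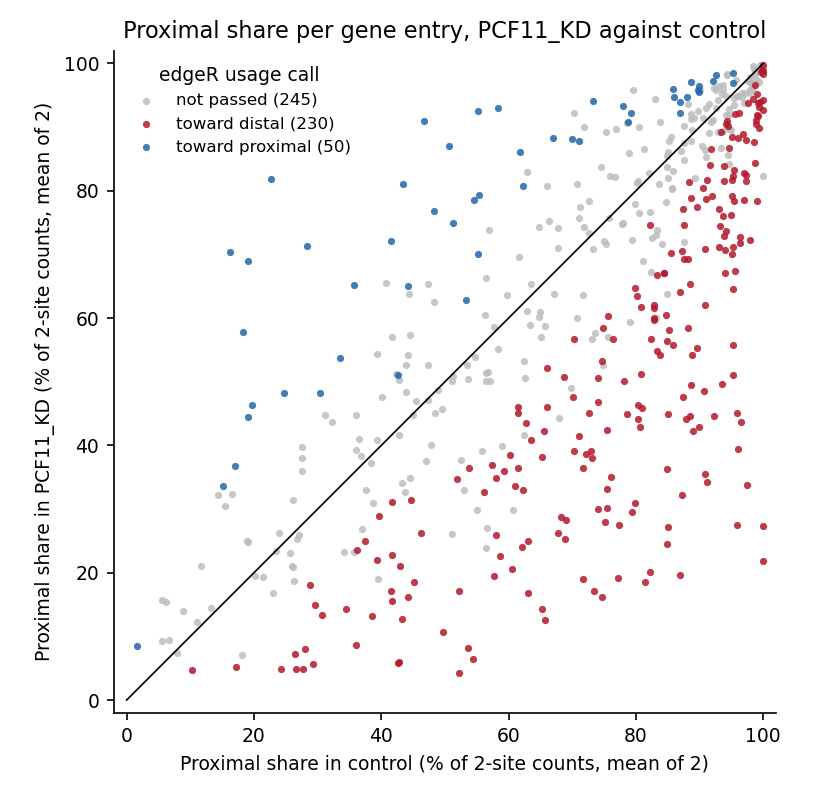
Proximal share in percent of the counts of both sites, mean of 2 libraries, in PCF11_KD (vertical axis) against control (horizontal axis), 1 point per gene entry, coloured by edgeR's usage call. Of the 525 entries, 230 toward distal lie below the line of equal shares and 50 toward proximal above it, and the 21 entries that fell by at least 50 points had control means of at least 65.3%.

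The gene with the greatest fall among well-covered entries was isopeptidase-T-3, whose current symbol is Kpc2, named after a subunit of a mammalian ubiquitin ligase. Its proximal share was 28.6% and 26.5% in PCF11_KD, against 95.8% and 95.8% in control. The distal site, 530 nt further along the transcript and 6 nt past the annotated gene end, had 2469.5 and 2509 CPM in PCF11_KD, against 165 and 162 CPM in control. The proximal site had 987 and 905 CPM in PCF11_KD, against 3804 and 3736 CPM in control. The groups did not overlap at either site, while the gene's total changed by -0.20 ± 0.14 on the log2 scale and did not pass (edgeR, adjusted p = 0.248). Here and below, ± marks the SE of a log2 change of PCF11_KD over control.

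The other 11 genes toward distal named by the same rule showed the same exchange between sites, and all 12 had a higher distal and a lower proximal site. Cks30A encodes a small subunit of cyclin-dependent kinase complexes, and its sites lie at 9331672 and 9332027 on 2L. Its share was 21.1% and 18.4% in PCF11_KD, against 86.3% and 87.5% in control, with a distal site at 335 and 382 CPM in PCF11_KD, against 50.4 and 51.9 CPM in control (log2 change 2.80 ± 0.25, edgeR adjusted p = 3.07e-07). Mitofilin, which organises the cristae of mitochondria, has sites at 22019665 and 22019505 on 3R, both inside its annotated 3′ UTR. Its share was 20.7% and 19.5% in PCF11_KD, against 82.2% and 82.2% in control, and the distal site stood at 4427 and 4852 CPM in PCF11_KD, against 887 and 794 CPM in control. EMC1, of the membrane protein insertion complex of the endoplasmic reticulum, had shares of 15.6% and 17.0% in PCF11_KD, against 72.9% and 76.6% in control, and its distal site was higher by 2.59 ± 0.14 (adjusted p = 2.33e-09). In all 3 genes the replicates of a group lay much closer together than the groups did.

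Chd1, a chromatin remodeller, had shares of 16.2% and 20.8% in PCF11_KD, against 72.8% and 90.0% in control. Its control replicates were the widest apart of the 12 genes, and the lower of them was still far above both PCF11_KD values. The eye pigment gene red had shares of 33.5% and 37.5% in PCF11_KD, against 90.0% and 91.7% in control, and the co-chaperone gene mrj of 44.5% and 43.0% in PCF11_KD, against 96.2% and 96.7% in control. The genes CG5065, CG11357, CG9393 and CG11030, known by annotation numbers, had PCF11_KD shares between 24.2% and 49.4%, where the lowest control share among them was 81.7%. CG11030 was the least even, with 29.3% and 49.4% in PCF11_KD, against 95.8% and 96.3% in control. CG11357 had the smallest proximal change of the 12, -0.56 ± 0.22, which did not pass without control replicate 2 or either PCF11_KD replicate in turn (edgeR, adjusted p = 0.0675 to 0.334).

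Of the 12 totals, 6 did not pass, 3 were higher (CG5065, EMC1 and CG11357) and 3 lower (Trpm, CG11030 and mrj). These counts are near the shares over all entries, of which 23.6% had higher and 21.7% lower totals. In Trpm, a cation channel gene, the proximal site had 106 and 128 CPM in PCF11_KD, against 1509 and 1865 CPM in control, and its distal site 235 and 223 CPM in PCF11_KD, against 44.8 and 39.7 CPM in control. The total fell by 2.32 on the log2 scale (SE 0.34, edgeR adjusted p = 6.78e-05), and the proximal log2 change, -3.85 ± 0.41, was the greatest loss among the 12. Its distal site lies in an annotated intron of the gene, 209 nt past the proximal one.

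**Figure D2:**
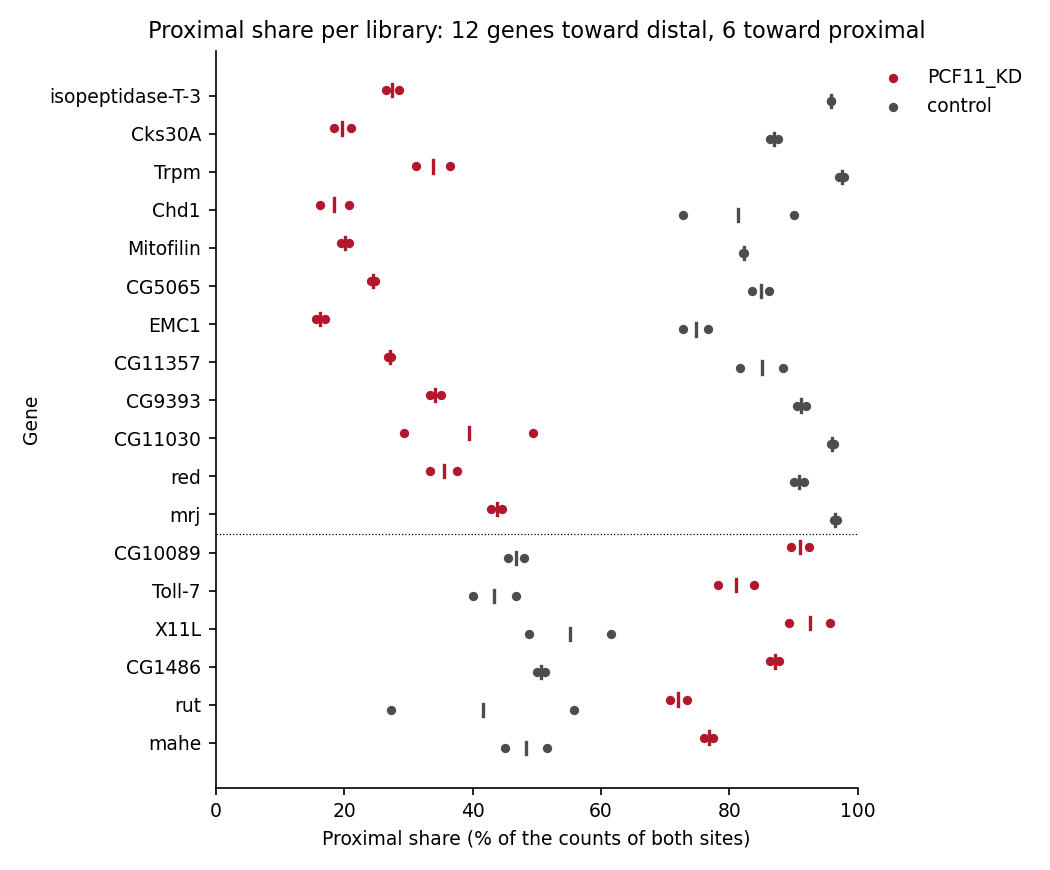
Proximal share in percent in each library (points) and group mean (bars) for the 12 genes toward distal, above the dotted line, and the 6 toward proximal, below it, PCF11_KD in red over control in grey. In the upper 12 genes every PCF11_KD library is at or below 49.4% and every control library at or above 72.8%, and in the lower 6 every PCF11_KD library is above both controls.

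The 6 genes toward proximal had means of 53.0 to 343.5 counts per control library, against 101.5 to 2586 for the 12 toward distal. CG10089 had shares of 89.7% and 92.4% in PCF11_KD, against 45.5% and 48.1% in control. Its proximal site was at 695 and 827 CPM in PCF11_KD, against 70.0 and 76.3 CPM in control, while the distal site stood at 80.1 and 68.4 CPM in PCF11_KD, against 84.0 and 82.4 CPM in control and did not pass (edgeR adjusted p = 0.791). Toll-7, a receptor of the Toll family, had shares of 78.2% and 83.9% in PCF11_KD, against 40% and 46.7% in control, and there the distal site was lower, with 54.0 and 44.1 CPM in PCF11_KD, against 235 and 174 CPM in control. X11L, which encodes an adaptor protein, had shares of 89.3% and 95.6% in PCF11_KD, against 48.8% and 61.5% in control, with the proximal site higher by 1.10 ± 0.28 and the distal site at -2.32 ± 0.38 (adjusted p = 0.00367 and 1.11e-04).

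The other 3 of these calls depended on single libraries. CG1486 had 86.3% and 87.8% in PCF11_KD, against 51.4% and 50.0% in control, and its usage call was lost without control replicate 1 (edgeR adjusted p = 0.0594, range over the settings 8.30e-04 to 0.0594). The adenylyl cyclase gene rut had 70.7% and 73.4% in PCF11_KD, against 27.4% and 55.8% in control, with widely spaced control replicates that both lay below PCF11_KD. It lost its call without control replicate 1 as well (edgeR adjusted p = 0.0756, range 1.84e-04 to 0.0756). mahe, of the DEAD-box helicase family, had 77.5% and 76.0% in PCF11_KD, against 51.5% and 45.1% in control and did not pass without any 1 of the 4 libraries (edgeR adjusted p = 0.0626, 0.129, 0.103 and 0.0799 without control replicates 1 and 2 and PCF11_KD replicates 1 and 2, range 7.56e-04 to 0.129).

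Which of the 2 sites carried a move was tested site by site. Over all genes, 211 of 482 tested distal sites (43.8%) were higher and 66 (13.7%) lower in PCF11_KD by edgeR, and of 517 tested proximal sites 169 (32.7%) were lower and 83 (16.1%) higher. Distal sites that were lower numbered 38 without control replicate 1 and 41 without PCF11_KD replicate 2. Among the 230 entries toward distal, the distal site was higher and the proximal site lower in 78. In 101 the distal site was higher and the proximal one not lower, and in 16 of these the proximal site was higher too. In 42 the proximal site was lower and the distal one not higher. With DESeq2's size factors in place of TMM these 3 counts were 78, 96 and 45, and with library totals alone 77, 103 and 41. The median log2 change over the 230 was 1.47 at the distal and -0.64 at the proximal site. The usage call and these site calls rest on the same counts, so the site calls describe the moves and add no separate evidence for them.

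Examples of each kind were as follows. In CycB, which encodes cyclin B, the distal site had 412 and 437 CPM in PCF11_KD, against 22.4 and 21.4 CPM in control, a log2 change of 4.26 ± 0.50 (edgeR adjusted p = 4.72e-06). The proximal site of CycB had 2201 and 2403 CPM in PCF11_KD, against 1442 and 1837 CPM in control, and its change did not pass (adjusted p = 0.139). orb, which encodes a CPEB family regulator of translation, had 98.8% and 98.7% of its counts at the proximal site in PCF11_KD, against 99.9% and 99.9% in control, yet its distal site had 136 and 179 CPM in PCF11_KD, against 14.0 and 9.16 CPM in control, where the control values rest on 5 and 3 counts. CG10600 was alike, with a distal site at 283 and 316 CPM in PCF11_KD, against 14.0 and 30.5 CPM in control. At the other end, Hr39, a nuclear receptor gene, had a proximal site at 29.8 and 11 CPM in PCF11_KD, against 120.4 and 186 CPM in control and a distal site at 393 and 379.5 CPM in PCF11_KD, against 406 and 430.3 CPM in control (adjusted p = 4.94e-05 and 0.586). The groups lay far apart at its proximal site, and at its distal site PCF11_KD was only just below control. CG8195 was of the same kind, with a proximal site at 44.7 and 53.0 CPM in PCF11_KD, against 274 and 329.6 CPM in control, and a distal change that did not pass (adjusted p = 0.0546). Mtch, a mitochondrial carrier homolog, had a proximal site at 143 and 117 CPM in PCF11_KD, against 885 and 925 CPM in control and a smaller change at the distal site (0.77 ± 0.19).

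**Figure D3:**
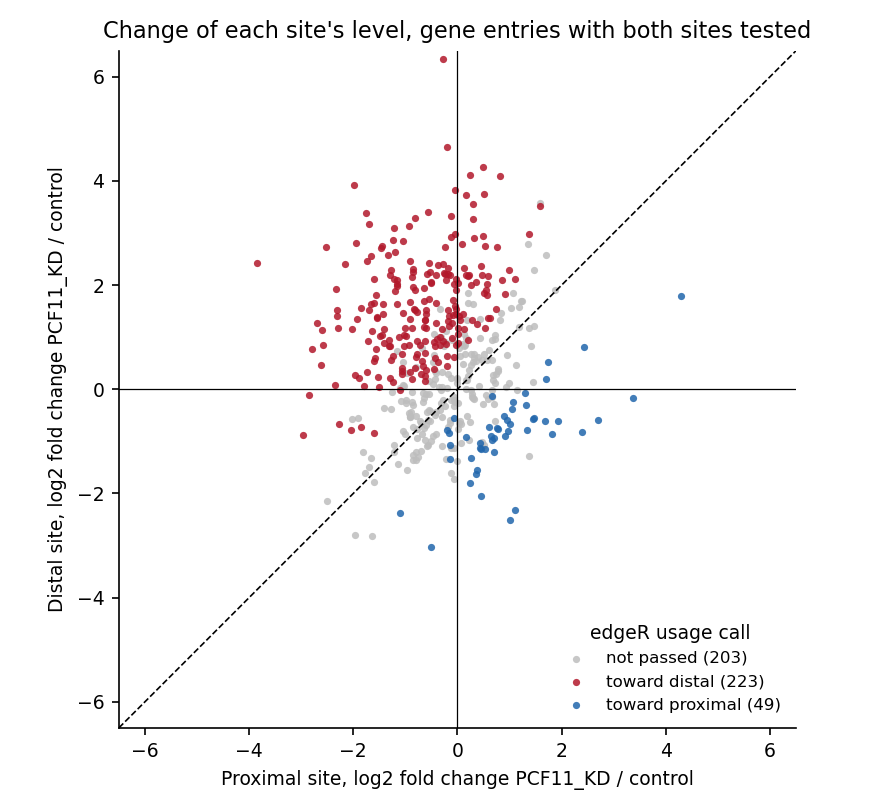
Log2 fold change of PCF11_KD over control at the distal site (vertical axis) against the proximal site (horizontal axis), 1 point per gene entry with both sites tested, coloured by edgeR's usage call. Entries toward distal lie above the dashed line of equal change, around medians of 1.47 at the distal and -0.64 at the proximal site. In 78 of the 230 the distal site was called higher and the proximal site lower.

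Entries toward proximal were carried by either site. Of the 50, the proximal site was higher in 27 and the distal site lower in 24, with median log2 changes of 0.84 and -0.80. Both conditions held in 6. The entries that did not pass in usage could still change as a whole: of 245, both sites were higher in 17 and both lower in 18.

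The distance between the sites went with the direction of the move. Of the 154 entries whose sites lie at most 250 nt apart, 53.2% moved toward distal and 3.90% toward proximal by edgeR. Of the 199 with over 250 and up to 600 nt between the sites, 49.7% and 6.53% did so. Of the 172 with more than 600 nt, 28.5% moved toward distal and 18% toward proximal. The median change in share was -14.0, -7.98 and 0.0174 points in the 3 classes. Entries toward distal had a median distance of 349.5 nt, those toward proximal 806.5 nt and those that did not pass 460.0 nt. Across genes, Spearman's rho between distance and change in share was 0.325 over the 525 entries, which share the same 4 libraries and are not independent replicates.

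The order of the classes was seen again in narrower sets. Among entries with control shares over 75%, 67.9%, 56.9% and 39.6% moved toward distal from the nearest to the farthest class. Among those with at most 75% these shares were 44.9%, 39.8% and 10.6%, and in the farthest class 27.3% moved toward proximal. Among entries with no other annotated gene at a site, which matters because reads were counted without regard to strand, 54.1%, 51.1% and 22.6% moved toward distal. Leaving out each of the 4 libraries gave 40.3% to 48.7% in the nearest class and 18.6% to 27.3% in the farthest, although without PCF11_KD replicate 2 the middle class, at 45.2%, was above the nearest, at 44.8%. In 4 entries the sites lie at most 60 nt apart, where blocks of 30 nt adjoin, and there the median share was 50.0% and 50.2% in PCF11_KD, against 51.2% and 51.2% in control, with 0 calls in either direction by edgeR. These entries (CG12992, CG14269, LIMK1 and lmgB) have a last site outside the tested pair, which those 0 calls do not cover. In each, that site held a higher share in both PCF11_KD libraries than in both controls. It held 5.12% and 5.52% in PCF11_KD, against 0.414% and 0.564% in control, in CG12992. In lmgB it held 3.23% and 2.63% in PCF11_KD, against 2.55% and 1.53% in control. Among entries with at least 50 counts in both groups, 60.8%, 51.7% and 33.3% moved toward distal.

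**Figure D4:**
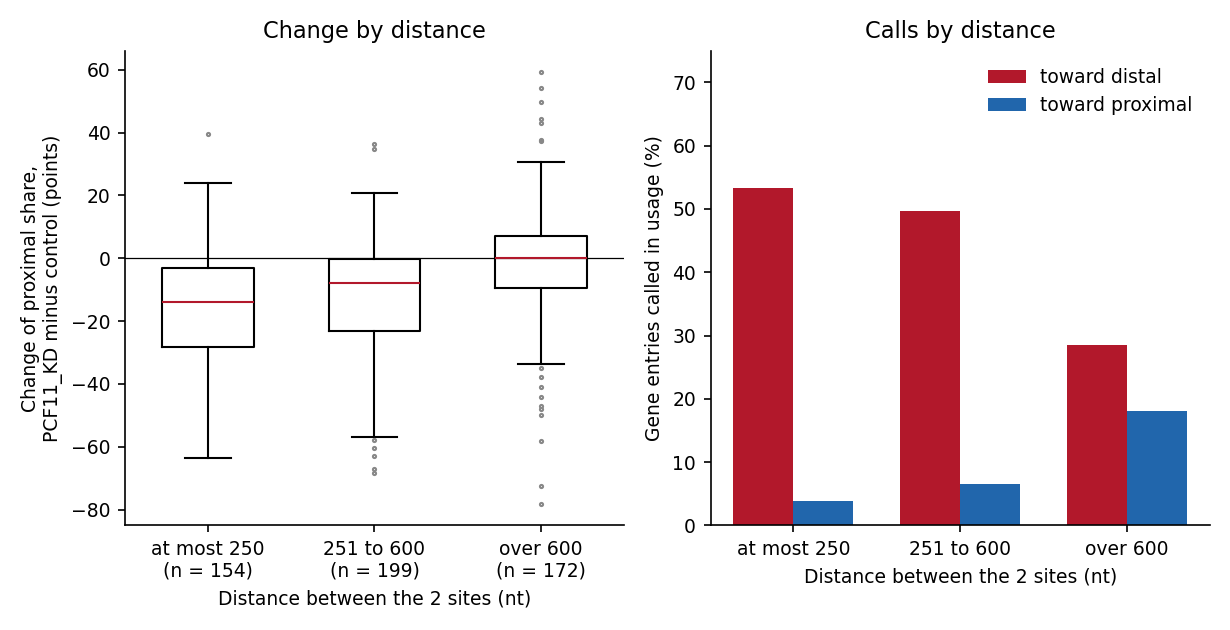
Left, change in proximal share in points (PCF11_KD minus control) by distance between the sites in nt, with the median as a red line, quartiles as boxes, whiskers to the last value within 1.5 box lengths and points beyond. Right, percent of entries called toward distal (red) and toward proximal (blue) by edgeR. The median change is -14.0 points at 250 nt or less and 0.0174 points beyond 600 nt, where 18% of entries moved toward proximal.

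The annotated place of the distal site gave smaller differences. It lies in an annotated 3′ UTR in 292 entries, of which 39.7% moved toward distal, and downstream of the annotated gene end in 220, of which 48.6% did so. Most of the downstream sites are close to the annotated end, with a median of 5 nt past it. The 32 that lie more than 100 nt past it moved toward distal in 14 entries (43.8%). By chromosome arm, 50.5% of 97 entries on 2L, 48.5% of 97 on 2R, 41% of 117 on 3L, 42.9% of 126 on 3R, 37.5% of 80 on X and 2 of 8 on 4 moved toward distal.

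In most of the 24 entries with 3 sites, the first site along the transcript lost share, and in most the last gained it. Both PCF11_KD libraries lay below both controls at the first site in 19 and above them in 2, and at the last site they lay above both controls in 15 and below them in 4. Over all 525 entries, the proximal share of the 2 main sites lay below both controls in 58.3% and above them in 20.4%. In usage, 10 of the 24 moved toward distal (43.8% of all entries) and 0 toward proximal (9.52%) by edgeR. Among those that lost at the last site was siz, with 55.6% and 57.0% there in PCF11_KD, against 81.2% and 83.1% in control. The median change was -7.41 points at the first, 3.36 at the middle and 3.70 at the last site. In CG12992, CG14269, LIMK1 and lmgB the first and middle sites lie at most 60 nt apart. The greatest change was in ear, a homolog of the ENL and AF9 elongation factor subunits, with sites at 15324382, 15324794 and 15324915 on 3R. The last site of ear took 63.1% and 61.1% in PCF11_KD, against 13.3% and 20.8% in control, and the first 24.4% and 27.8% in PCF11_KD, against 67.8% and 63.2% in control. Scm, of the Polycomb group, gained at the middle site, which took 43.9% and 43.3% in PCF11_KD, against 17.1% and 17.9% in control, with the first at 36.4% and 38.9% in PCF11_KD, against 69.1% and 74.1% in control. The Notch ligand gene Dl and CG12104 gained chiefly at the middle site as well, and Scm and CG12104 have another annotated gene at a site. In addition, the usage call of Dl was lost when its first and last site were compared (edgeR adjusted p = 0.156, range over the settings 4.60e-05 to 0.156). CG30015, chosen after its values were seen, gained at a site outside the tested pair. Its last site took 45.2% and 44.5% in PCF11_KD, against 5.01% and 3.88% in control.

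By function, genes of the cell cycle and meiosis moved nearly all one way. Of 13 measured members of a list of 76 symbols, 12 moved toward distal by edgeR (43.8% of all entries did) and 0 toward proximal, where 0 had an unadjusted p under 0.05 in that direction and 0 passed by DESeq2. The distal site was higher in 12, and the median change in share was -26.9 points, against -6.24 over all entries. Totals were higher in 9 of the 13 (23.6% of all entries) and lower in 1 (21.7%). The number toward distal was 11 or 12, and the number of higher totals 7 or 8, when any 1 of the 4 libraries was left out. No test was made over the list, which was drawn up with earlier results of these data known.

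The mitotic cyclin genes gained at the distal site from a low level. CycA had 117 and 124 CPM in PCF11_KD, against 11.2 and 9.16 CPM in control at the distal site, and 888 and 1046 CPM in PCF11_KD, against 279.9 and 369 CPM in control at the proximal site, with both sites called higher and a total higher by 1.70 ± 0.24 (edgeR adjusted p = 5.07e-05). CycB3 had a distal site at 326 and 351 CPM in PCF11_KD, against 81.2 and 76.3 CPM in control, and its usage call was lost without control replicate 2 (edgeR adjusted p = 0.0977, range 0.00628 to 0.0977). In twe, the Cdc25 phosphatase gene of the meiotic divisions, the distal site had 149 and 106 CPM in PCF11_KD, against 5.60 and 9.16 CPM in control. The control values of twe rest on 2 and 3 counts, and those of CycA at its distal site are similarly low. Another annotated gene lies at a site of twe.

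In 5 called members (Cks30A, mei-S332, vih, pim and Wee1) the proximal site held most counts in both controls and the distal site in both PCF11_KD libraries. mei-S332, the fly shugoshin that protects centromeric cohesion, had a distal site at 4481 and 4599 CPM in PCF11_KD, against 1066 and 1111 CPM in control, and shares of 20.1% and 21.1% in PCF11_KD, against 59.3% and 61.9% in control. vih, which encodes an E2 partner of the anaphase-promoting complex, had a distal site at 3969 and 4124 CPM in PCF11_KD, against 694 and 601 CPM in control, with another annotated gene at a site. pim, the fly securin, had 773 and 741 CPM in PCF11_KD, against 190.3 and 189 CPM in control at the distal site, while its proximal site, with 356 and 388 CPM in PCF11_KD, against 311 and 314 CPM in control, did not pass (adjusted p = 0.373). gwl, the Greatwall kinase gene, had shares of 9.22% and 2.65% in PCF11_KD, against 50.0% and 35.5% in control on a mean of 31.5 counts per control library. The kinase gene Wee1 had 43.0% and 35.3% in PCF11_KD, against 75.5% and 65.2% in control, and also has another annotated gene at a site.

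The only lower total of the list was in fzr, the Cdh1-type activator of the anaphase-promoting complex, whose total had 844 and 920.2 CPM in PCF11_KD, against 1733 and 1959 CPM in control (-1.07 ± 0.13, edgeR adjusted p = 2.40e-05) while its distal site was higher, with 294 and 285 CPM in PCF11_KD, against 101 and 122 CPM in control. The spindle checkpoint kinase gene Bub1 had shares of 26% and 18% in PCF11_KD, against 43.6% and 35.1% in control, and its usage call was lost without control replicate 1 or PCF11_KD replicate 2 (edgeR adjusted p = 0.159 and 0.143, range 0.0208 to 0.159). mei-41, the ATR kinase gene, was the 1 member that did not pass, with a mean of 25 counts in PCF11_KD and 8.5 in control.

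**Figure D5:**
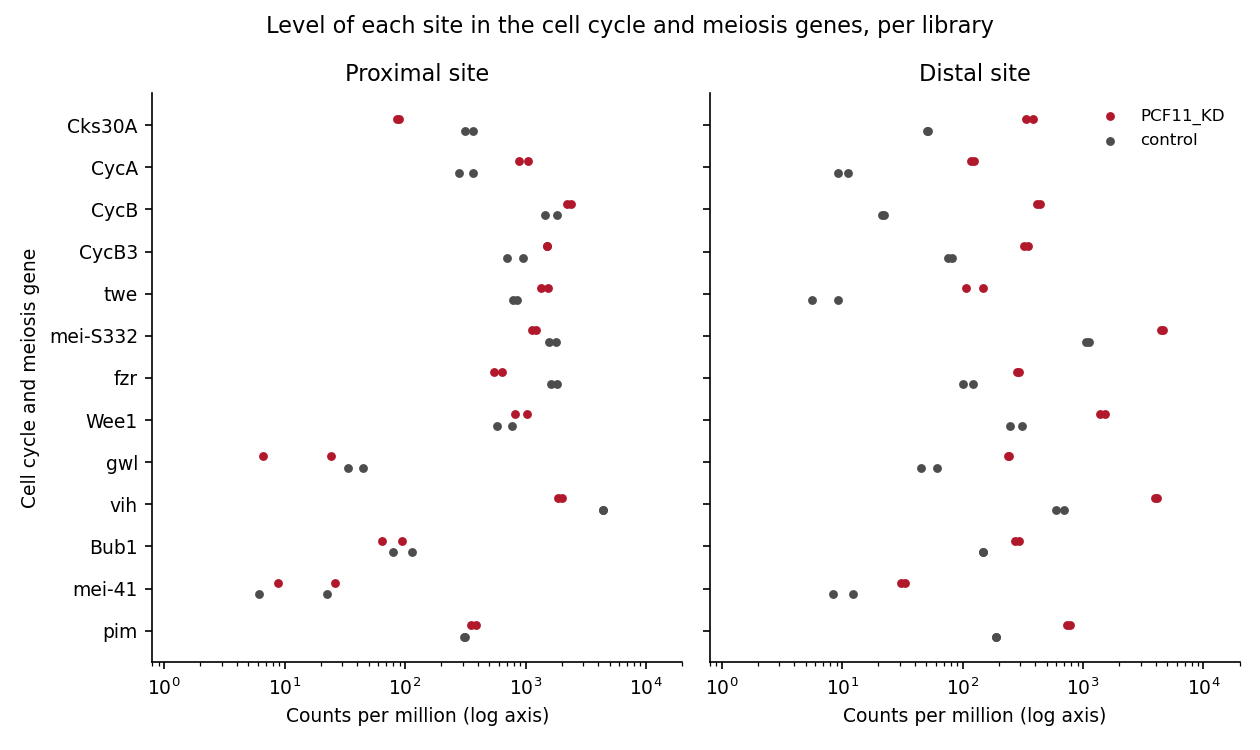
CPM at the proximal (left) and distal site (right) of the 13 cell cycle and meiosis genes in each library, on log axes, PCF11_KD in red over control in grey. The distal site is called higher in 12 of the 13 genes, beside 43.8% of tested distal sites over all genes. The proximal site is called lower in 4 and higher in 4, beside 32.7% and 16.1% of tested proximal sites.

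Signalling genes gave more calls toward proximal than toward distal. Of 24 measured members of a list of 92, 8 moved toward proximal (9.52% of all entries) and 4 toward distal (43.8% of all entries) by edgeR, and the median change in share was 3.44 points. The distal site was lower in 12 of the 24, beside 13.7% of distal sites over all genes, and totals were lower in 9 (21.7% of all entries) and higher in 1 (23.6%). Without 1 library at a time, 6 to 8 moved toward proximal and totals were lower in 6 to 9. The 8 were drk, Gprk2, rut, Toll-7, X11L, wts, par-6 and aPKC. drk, an adaptor of receptor tyrosine kinases, had a distal site at 95.0 and 86.1 CPM in PCF11_KD, against 224 and 192 CPM in control. par-6, a cell polarity gene, had one at 136 and 148 CPM in PCF11_KD, against 294 and 232 CPM in control, a change lost without control replicate 1 (edgeR adjusted p = 0.0701). The usage calls of wts, a kinase of the Hippo pathway, and of aPKC were lost without control replicate 2 or PCF11_KD replicate 2 (wts, adjusted p = 0.0717 and 0.0927, range 0.00864 to 0.0927; aPKC, 0.0991 and 0.196, range 0.0381 to 0.196), and that of aPKC also without control replicate 1 (adjusted p = 0.149).

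Among the exceptions in signalling were Tsc1, a negative regulator of growth, with shares of 33.7% and 23.7% in PCF11_KD, against 63.8% and 72.7% in control, and Trpm, described above. The site pairs of the 8 genes toward proximal all lie more than 600 nt apart, between 961 and 1586 nt. Over all 525 entries, 172 have sites more than 600 nt apart, and 31 of the 50 entries toward proximal are among them.

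The remaining lists are smaller or nearer to the whole, in which 43.8% of entries moved toward distal and 9.52% toward proximal. In membrane trafficking, 6 of 9 genes shifted to their distal site and 0 to their proximal site by edgeR (unadjusted p-values under 0.05 in that direction numbered 0, and DESeq2 called 0), with a median change in share of -21.9 points. The syntaxin gene Syx6 had a distal site at 551 and 618 CPM in PCF11_KD, against 171 and 128 CPM in control, and Syx7 at 4222 and 4713 CPM in PCF11_KD, against 1752 and 1837 CPM in control. Of 6 mitochondrial genes, 3 moved toward distal, and the median change was -15.7 points. They include HtrA2, a protease of the intermembrane space, whose distal site had 741 and 770.1 CPM in PCF11_KD, against 120.4 and 134 CPM in control, and MCU, the calcium uniporter. Tom40, a channel of the outer membrane, had shares of 74.6% and 75.3% in PCF11_KD, against 78.3% and 77.5% in control and did not pass (edgeR adjusted p = 0.371).

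Of 18 ubiquitin entries, which belong to 17 genes since Cbl has 2, 8 moved toward distal and 2 toward proximal by edgeR, with a median change of -3.03 points. The deubiquitinase genes Usp7, Usp8 and Duba were among the 8, and Duba had a distal site at 2598 and 3159.9 CPM in PCF11_KD, against 397 and 360.1 CPM in control with a proximal site at 6659.9 and 6748 CPM in PCF11_KD, against 7345 and 7267 CPM in control. The ubiquitin ligase gene ctrip went toward proximal, with a proximal site at 8368 and 9605 CPM in PCF11_KD, against 3599.7 and 3543 CPM in control. Of 25 chromatin and transcription genes, 10 moved toward distal and 3 toward proximal, with a median of -3.33 points. acj6, a POU transcription factor gene known from neurons, had shares of 25.6% and 29.5% in PCF11_KD, against 73.3% and 81.5% in control, although its sites lie 1490 nt apart. Of 10 RNA binding and mRNA turnover genes, 5 moved toward distal and 2 toward proximal, with a median of -2.73 points. Among the 5, twin, a deadenylase subunit of the CCR4-NOT complex, had a distal site at 2101 and 2196 CPM in PCF11_KD, against 448 and 409 CPM in control. The 2 were Patr-1, a decapping activator with shares of 70.6% and 67.3% in PCF11_KD, against 14.3% and 23.8% in control, and heph, a polypyrimidine tract binding protein gene with 77.6% and 79.3% in PCF11_KD, against 57.3% and 51.9% in control. 

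Of 10 centrosome and cytoskeleton entries, which belong to 9 genes, 3 moved toward distal and 1 toward proximal, with a median of -2.99 points. The 1 and a member of the 3 are the 2 entries of cnn, centrosomin, which went opposite ways by small amounts (cnn-PD had 97.0% and 96.0% in PCF11_KD, against 86.8% and 93.1% in control, and cnn-PI 97.5% and 95.8% in PCF11_KD, against 99.0% and 98.5% in control). Both of these calls were lost without control replicate 1 (edgeR adjusted p = 0.175, range 0.00398 to 0.175, and 0.0868, range 0.00912 to 0.111), and 1 of the 10 entries moved toward distal without PCF11_KD replicate 2. Of the 3, the call of chb, a microtubule plus-end protein gene, held without any 1 library, with shares of 4.67% and 5.22% in PCF11_KD, against 24.7% and 30.8% in control.

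Gene totals changed in both directions. By edgeR, 124 totals (23.6%) were higher and 114 (21.7%) lower, and without PCF11_KD replicate 2 the number higher was 82. With DESeq2's size factors 111 were higher and 126 lower, so which direction had more depended on the scaling. Among the 230 entries toward distal, 65 totals were higher, 52 lower and 113 did not pass, with a median log2 change of 0.12. The 4 called genes whose totals moved least were phtf, Roe1, ken and MCU. phtf had 4906 and 5338 CPM in PCF11_KD, against 5072 and 5176 CPM in control in all, while its distal site had 853 and 942 CPM in PCF11_KD, against 157 and 113 CPM in control. ken, a transcriptional repressor gene, had 415 and 430.3 CPM in PCF11_KD, against 423 and 427 CPM in control in all, with shares of 52.9% and 44.1% in PCF11_KD, against 90.7% and 90.7% in control.

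The greatest rises in total were in CG10089, the centrosomin entry cnn-PD, the deubiquitinase gene DUBAI and CycA. DUBAI had 7276 and 6759 CPM in PCF11_KD, against 2149.7 and 1651 CPM in control (1.88 ± 0.27, edgeR adjusted p = 6.82e-05), with both sites called higher and no call in usage. cnn-PD had 2397 and 2310.3 CPM in PCF11_KD, against 445 and 488 CPM in control. The greatest falls were in Gprk2, which encodes a kinase of G-protein-coupled receptors, Rbp9, an ELAV-type RNA-binding protein gene, Trpm and zfh1. Gprk2 had 564 and 479 CPM in PCF11_KD, against 4221 and 3659 CPM in control (-2.92 ± 0.16, edgeR adjusted p = 1.62e-08), and most of that was at its distal site. Rbp9 had 248 and 218 CPM in PCF11_KD, against 1596 and 1459 CPM in control. The groups did not overlap in any of these totals.

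Few markers of testis cell types were measured, 8 of 44 listed. zfh1, a transcription factor of the somatic cyst lineage and the 1 of 9 somatic markers measured, had 143 and 137 CPM in PCF11_KD, against 456 and 482 CPM in control (-1.74 ± 0.24, edgeR adjusted p = 4.41e-05). The 2 of 10 early germline markers, chinmo and Rbp9, summed to 2056 and 2262 CPM in PCF11_KD, against 2721 and 2893 CPM in control, with chinmo higher and Rbp9 lower. The 2 of 11 markers of the spermatocyte program, simj and twe, summed to 2328 and 2586 CPM in PCF11_KD, against 1276 and 1459 CPM in control. The 3 of 14 spermatid markers, m-cup, r-cup and nes, summed to 9977 and 11362 CPM in PCF11_KD, against 9548 and 10514 CPM in control, and they went different ways. r-cup had 5425 and 6289 CPM in PCF11_KD, against 3493 and 3815 CPM in control and was higher (edgeR adjusted p = 0.00458, and 0.0888 without PCF11_KD replicate 2). m-cup had 2822 and 3036 CPM in PCF11_KD, against 4243 and 4932 CPM in control and was lower (edgeR adjusted p = 0.00201), while nes, with 1730.2 and 2037 CPM in PCF11_KD, against 1811 and 1767 CPM in control, did not pass (edgeR adjusted p = 0.689). Of the 8 measured markers, 0 were at 0 counts in a group. The higher total of simj did not pass without control replicate 1 or PCF11_KD replicate 2 (edgeR adjusted p = 0.106 to 0.113), nor did that of chinmo (0.0851 to 0.0941). Whether these levels bear on the other totals above or on the lower distal sites of signalling genes was not tested.

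Against the other RNAi line for PCF11, tested directly and without the controls, PCF11_KD was more distal in 101 entries (19.2%) and more proximal in 18 (3.43%) by edgeR. These 119 entries were 76 without PCF11_KD replicate 2, and 73 and 76 without PCF11_NIG_KD replicates 1 and 2. Median shares were 61.8% and 63.8% in PCF11_KD, 68.8% and 68.3% in PCF11_NIG_KD and 76.1% and 78.6% in control. Of the 12 genes toward distal, 11 lay in this order in every library, and 9 differed between the lines. Because the 12 were chosen for their fall in PCF11_KD, these counts describe them and are no separate evidence for the order. isopeptidase-T-3 had 28.6% and 26.5% in PCF11_KD, 48.3% and 47.6% in PCF11_NIG_KD and 95.8% and 95.8% in control, and red had 33.5% and 37.5% in PCF11_KD, 62.7% and 68.3% in PCF11_NIG_KD and 90.0% and 91.7% in control. The difference between the lines passed for both (log2 odds -1.28 ± 0.24 and -1.79 ± 0.24, edgeR adjusted p = 0.00187 and 1.33e-04).

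In flfl and Ephrin the 2 lines differed in a way that the control comparison of PCF11_KD does not show. flfl, a regulatory subunit gene of protein phosphatase 4, had 45.8% and 48.3% in PCF11_KD, 86.7% and 93.5% in PCF11_NIG_KD and 46.6% and 44.3% in control. Ephrin, a ligand gene, had 47.8% and 47.6% in PCF11_KD, 89.8% and 88.9% in PCF11_NIG_KD and 34.2% and 46.1% in control. In both, the PCF11_KD libraries were near the controls and far below the other line (log2 odds -3.31 ± 0.69 and -3.19 ± 0.34, edgeR adjusted p = 0.00366 and 3.02e-05). acj6 had 25.6% and 29.5% in PCF11_KD and 64.7% and 66.9% in PCF11_NIG_KD, against 73.3% and 81.5% in control. Dl was the reverse, with 38.3% and 51.6% in PCF11_KD and 9.72% and 1.37% in PCF11_NIG_KD, against 78.7% and 78.4% in control. The lines were not matched for residual PCF11, which was not measured.

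Against cbc_KD, the knockdown of the partner of PCF11, PCF11_KD was more proximal in 238 entries (45.3%) and more distal in 29 (5.52%) by edgeR. The share that was more proximal grew with distance, 30.5% of entries with at most 250 nt between the sites, 46.2% of those with over 250 and up to 600 nt and 57.6% of those with more. In the last class median shares were 78.2% and 81.8% in PCF11_KD, 56.8% and 58.7% in cbc_KD, and 82.1% and 86.1% in control. In the class of at most 250 nt they were 45.9% and 48.5% in PCF11_KD, 40.4% and 43.4% in cbc_KD, and 63.4% and 67.3% in control.

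The 4 well-covered genes with the greatest difference from cbc_KD all have sites more than 600 nt apart. Klp98A, a kinesin gene, had 87.6% and 96.3% in PCF11_KD, 34.5% and 33.6% in cbc_KD and 96.0% and 93.3% in control. The actin nucleator gene Arp2 had 83.0% and 89.5% in PCF11_KD, 34.4% and 36.6% in cbc_KD and 91.6% and 82.7% in control. Neither passed against control (adjusted p = 0.446 and 0.778), and both differed from cbc_KD by log2 odds of 4.50 ± 0.52 and 3.47 ± 0.50 (edgeR adjusted p = 1.35e-05 and 7.61e-05). Rab30, a small GTPase gene, had 87.5% and 87.7% in PCF11_KD, 42.7% and 29.8% in cbc_KD and 98.3% and 98.8% in control. dco, the casein kinase gene of the circadian clock, had 80.0% and 81.5% in PCF11_KD, 15.8% and 41.1% in cbc_KD and 66.6% and 65.5% in control. In Mitofilin, with sites 160 nt apart, the difference between the knockdowns did not pass, with 20.7% and 19.5% in PCF11_KD and 20.7% and 22.6% in cbc_KD (log2 odds -0.13 ± 0.15, adjusted p = 0.497).

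The authors' deposited table for this comparison lists 473 genes, of which 273 have an adjusted p under 0.05 with a PolyAIndex above 0, and 92 with one below 0. Of the 230 entries toward distal, 220 are in the authors' deposited table and 219 pass there with an index above 0. All 48 of the 50 entries toward proximal that are in the authors' deposited table pass with an index below 0. The authors' deposited table calls 97 genes that did not pass in edgeR, and 1 gene has opposite directions. Both sets of calls rest on the same PCF11_KD and control libraries, so their overlap is no separate evidence for the moves.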

How the data were processed

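The 3′-end libraries of fly testes were processed by the authors before deposit. Bowtie, SAMtools and the builds dm6 and BDGP6 are named in the submitters' processing notes, and the deposited run logs of PolyA-miner name blocks of 30 nt, counting with strand setting 0 (reads of either strand) and umi setting 0 (no molecular identifiers). The deposited values used here are raw counts per poly(A) site, and, from the authors' comparison table, a PolyAIndex score and an adjusted p-value per gene, both computed by the authors. The counts hold only sites on the authors' site list, in genes with several such sites, so library totals cover part of a transcriptome. The SEs marked ± come from the quasi-likelihood fits and include the spread between replicates as well as counting error.

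From the counts, the 2 sites with most counts were taken per entry as proximal and distal along the strand. Usage was tested with edgeR 4.0.16 (R 4.3.3) by quasi-likelihood in one fit over all 18 libraries, as the log2 odds of proximal against distal counts. Site levels and gene totals were tested in the same way on the log2 scale after TMM scaling, and p-values were adjusted over all entries by Benjamini-Hochberg. Entries with a mean under 10 counts per library were left out, and a call is an adjusted p under 0.05. The tests were first run on simulated data with known changes. Alternatives were DESeq2 1.42.0, other scalings and filters, the first and last site, 4 libraries only, a replicate block and leaving out each library.

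Genes were named by rule: the 12 greatest falls and 6 greatest rises in share among called genes averaging 50 or more counts in each of both groups, shares that do not overlap between groups and no other annotated gene at a site, 4 genes per direction for sites, totals, 3-site entries and each direct comparison, and members of the gene lists. The comparison and the lists were chosen with earlier results of these data known. Hexamer classes and site sequences were planned and are not analysed here. Positions are the BDGP6 coordinates of the deposited site list, and places (3′ UTR, intron, downstream) come from the Ensembl annotation of BDGP6, in which 99.7% of the deposited gene models had the same ends. No value was taken from a sample of another series (0 columns).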

Additional observations from a re-analysis of the deposited data

Results flagged for a closer look

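Usage differed between PCF11_KD and the other RNAi line in 119 entries by edgeR's direct test of PCF11_KD minus PCF11_NIG_KD. The log2 odds of proximal use differed by -3.31 in flfl, -3.19 in Ephrin and -2.34 in acj6, where PCF11_KD was the more distal, and by 3.76 in Dl, where PCF11_KD was the more proximal. Against cbc_KD, usage differed in 267 entries by the same test. Among them, with PCF11_KD the more proximal, were Klp98A at 4.50, Rab30 at 3.65, dco at 3.50 and Arp2 at 3.47. The values of each library are given with these comparisons above.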

How the results depend on the processing

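No call of a gene or site named by rule changed direction under any setting run. Among all entries called in usage against control, 1 changed sign when the first and last site were compared. Of 157 named results, 19 lost their call under at least 1 setting. Most of the 157, 129, are usage results against control, and 12 are totals, of which those of phtf, Roe1, ken and MCU had no call to lose. Most site and total calls of listed genes are not among the 157. Several of those calls were lost when 1 library was left out, such as the totals of Bub1, CycB and Taf1 and the proximal site of Tsc1. Leaving out 1 library leaves a single library in an arm, which is assumed to vary like the other groups. In these fits the number toward distal was 173 to 213 and toward proximal 28 to 40 (28 without control replicate 1), proximal sites lower 141 to 151 and higher 57 to 67, and distal sites higher 166 to 201 and lower 38 to 60. Totals higher numbered 82 to 104 and lower 86 to 93, usage differences from PCF11_NIG_KD 73 to 86 and from cbc_KD 216 to 254, and the fall of the median share was between -15.8 and -13.3 points. Among sites averaging 50 or more counts, distal sites lower numbered 43, fewer sites being tested. Under the other settings these counts were within 1.5 times of those reported, with 156 toward distal and 35 toward proximal among entries with no other annotated gene at a site. DESeq2 kept 216 of the 230 calls toward distal and 42 of the 50 toward proximal.

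With a replicate block, 234 entries moved toward distal and 52 toward proximal, 126 totals were higher and 114 lower, and 121 and 271 entries differed from PCF11_NIG_KD and cbc_KD. Replicate numbers are shared between the groups, but the labels tie them to no shared cross or day. With only 2 pairs, the deviations of same-numbered libraries had a correlation of 0.189 for shares and 0.215 for log2 totals across entries, so the numbers were not taken to pair the samples. Depth limits the sites with few counts: 36 of the 245 entries without a usage call had a distal site under the filter.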
